A study of Mus musculus with 16 samples.

Results

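The superoxide dismutases, catalase and glutathione peroxidases were taken as the 9 genes Sod1, Sod2, Sod3, Cat, Gpx1, Gpx3, Gpx4, Gpx7 and Gpx8, chosen by symbol from the 55492 genes of the deposited table. All 9 passed the filter, a mean normalized count of 10 or more over the libraries, as did 20576 genes in all. Left ventricles of 16 male C57BL/6 mice aged 8 to 12 weeks were profiled by rRNA-depleted RNA sequencing, with 1 mouse to a library. The study asked what PKM2, an isoform of the glycolytic enzyme pyruvate kinase encoded by Pkm, does in the heart at rest and after myocardial infarction (MI). The control PKM2fl/fl mice carried loxP-flanked exon 10 of Pkm and no Cre. PKM2-/- mice descended from a cross with Cre under the CMV promoter, which deleted that exon in the germline and therefore in every tissue, and Cre was then bred out. Each genotype had 2 untreated mice at baseline, 3 mice 3 days after sham surgery, and 3 mice 3 days after permanent ligation of the left anterior descending coronary artery.

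These enzymes remove superoxide and peroxides. Superoxide dismutases convert superoxide to hydrogen peroxide: SOD1 uses copper and zinc in the cytosol, SOD2 uses manganese in the mitochondrial matrix, and SOD3 is the secreted, matrix-bound copper and zinc enzyme. Catalase breaks down hydrogen peroxide, mainly in peroxisomes. Glutathione peroxidases reduce peroxides, and GPX1, GPX3 and GPX4 use glutathione to do so. GPX1 acts in the cytosol and mitochondria, GPX3 is secreted, and GPX4 reduces lipid hydroperoxides in membranes and so restrains ferroptosis. GPX7 and GPX8 reside in the endoplasmic reticulum, where they use peroxide in oxidative protein folding. In the heart, mitochondria of cardiomyocytes are a main source of superoxide.

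The glutathione peroxidase genes divide by their catalytic codon. Among the 3 genes with a selenocysteine codon, Gpx1 rose after MI, Gpx4 fell and Gpx3 had no significant change. Both genes with a cysteine codon, Gpx7 and Gpx8, rose. A link between the codon and the direction after MI was not tested. In the 45-base windows below, read 5′ to 3′ on the coding strand from GRCm39 with GENCODE M39 transcripts, the capitals mark the catalytic codon. It is TGA, read as selenocysteine, in Gpx1 (chr9:108216629-108216673, forward strand; exon 1 of 2), Gpx3 (chr11:54798061-54798105, forward strand; exon 2 of 5) and Gpx4 (chr10:79890550-79890594, forward strand; exon 3 of 7). In Gpx7 (chr4:108260606-108260650, reverse strand; exon 2 of 3) and Gpx8 (chr13:113182174-113182218, reverse strand; exon 2 of 3) the codon encodes cysteine. The last window is the processed pseudogene Gpx4-ps2 (chr10:45751543-45751587, forward strand), which carries C9T relative to Gpx4, counted from 1 at the 5′ end of the window, and matched at the other 44 bases.
Gpx1: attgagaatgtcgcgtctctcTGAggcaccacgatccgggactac
Gpx3: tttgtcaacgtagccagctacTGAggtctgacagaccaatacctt
Gpx4: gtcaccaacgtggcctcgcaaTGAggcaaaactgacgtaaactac
Gpx7: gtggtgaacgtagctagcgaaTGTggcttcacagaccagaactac
Gpx8: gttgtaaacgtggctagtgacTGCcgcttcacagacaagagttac
Gpx4-ps2: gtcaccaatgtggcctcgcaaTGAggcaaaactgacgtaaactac

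The members lie on 9 different chromosomes. In GRCm38.p6, the RefSeq assembly of the mm10 build used for alignment, Sod1 is at chr16:90220762-90226333, Sod2 at chr17:13007839-13018119, Sod3 at chr5:52363804-52369738, Cat at chr2:103453904-103485153 and Gpx3 at chr11:54902854-54910387. Gpx4 is at chr10:80047166-80056439, Gpx7 at chr4:108400217-108406713 and Gpx8 at chr13:113042757-113046430. Gpx1, at chr9:108339080-108340342, shares chromosome 9 with Pkm but lies 48.7 megabases from it. The counts of Gpx4 and Gpx8 are less certain than the others. Gpx4-ps2 held 20.6 to 27.9% of the value of Gpx4 in the 16 libraries, and its transcript matched Gpx4 at 553 of 555 bases, so reads can be split between them. Gpx8 lies inside Cdc20b on the opposite strand, and the library kit does not mark strand. Exons of the pair do not overlap in GENCODE M39, and whether they do in the annotation used for counting was not tested. Cdc20b was listed with 1.80 to 8.18% more reads than Gpx8 in 16 of 16 libraries, so the values of this pair were not taken as separate measurements.

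The libraries held 20623769 to 71855101 reads on genes, of which 15.8 to 46.1% fell on 5 rRNA-related loci. That share was 39.7 to 43.8% in PKM2-/- and 17.3 to 22.1% in PKM2fl/fl hearts at baseline. Cardiomyocyte markers (10 genes, including Myh6 and Tnnt2) summed to 1102109 to 1258050.3 normalized counts in PKM2fl/fl sham hearts and 209936 to 485471 after MI. In PKM2-/- hearts the sums were 1005077 to 1202202 and 219822 to 301774. In this sum PKM2fl/fl MI 3 stood apart, with 209936 against 485471 and 476109.6 in its group. Other libraries stood apart in other marker sums. PKM2fl/fl sham 3 had a neutrophil sum of 231 against 1358 and 1383 in its group. PKM2-/- MI 1 had an erythroid sum of 21610 against 7657 and 6003. The rows count Pkm as a whole gene, so they do not check the deletion of exon 10.

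Levels of different genes were compared per kilobase of the canonical transcript (GENCODE M39), in normalized counts per kilobase, with the range that the longest and shortest annotated coding transcripts would give. Reads on Gpx4-ps2 (20.6 to 27.9% of the value of Gpx4) were not added to Gpx4. The ranges do not cover reads split between them, and the order of Gpx1 and Gpx4 after MI may depend on these. Of Gpx1, Gpx4, Gpx7 and Gpx8, Gpx4 was the most abundant at baseline, with 4416 ± 107 in PKM2fl/fl hearts and 4395 ± 29.2 in those of PKM2-/- mice (SD, n = 2 each). In PKM2fl/fl hearts Gpx1 (613 ± 151), Gpx8 (197 ± 2.13) and Gpx7 (62.0 ± 3.30) followed. This order held over the ranges, which were 4256 to 5429 for Gpx4, 613 to 881 for Gpx1, 197 to 229.5 for Gpx8 and 55.7 to 141 for Gpx7. After MI, Gpx1 (2332 ± 662) and Gpx4 (2437 ± 509) did not differ beyond their spread in PKM2fl/fl hearts (SD, n = 3). In PKM2-/- hearts after MI, Gpx1 stood at 2713 ± 155 and Gpx4 at 2433 ± 212 per kilobase, with overlapping ranges of 2713 to 3899 and 2345 to 2991. Gpx8 and Gpx7 were below both, at 332 ± 18.1 and 256 ± 13.5 in PKM2fl/fl infarcted hearts, and their own order depended on the transcript. Gpx3 was not ranked, since its range in PKM2fl/fl hearts was 649 to 2662 at baseline and 1166 to 4784 after MI. Sod1 and Sod2 were not ranked either, since annotated coding transcripts of Sod1 ranged from 874 to 5315 bases and those of Sod2 from 451 to 6110.

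Infarction divided the family. Sod1, Sod2, Cat and Gpx4 were lower after MI than after sham in both genotypes, and Sod3, Gpx1, Gpx7 and Gpx8 were higher. Gpx3 passed the test in neither. Of the 9 members, 8 were called in PKM2fl/fl hearts (adjusted p under 0.05 from limma with Benjamini-Hochberg adjustment), against 50.1% of all genes tested. In PKM2-/- hearts 8 of 9 were called, against 56.8%. The 4 higher and 4 lower members stand beside 24.8% and 25.3% of all genes in PKM2fl/fl, and 28.7% and 28.1% in PKM2-/- hearts. With a 2-fold change required as well, 5 members were called in PKM2fl/fl and 4 in PKM2-/- hearts, against 23.5% and 28.8% of all genes. The median log2 fold change of the members was 0.32 in PKM2fl/fl and 0.13 in PKM2-/- hearts, and that of all genes was -0.00254 and 0.0105. For each called member, the values of the 3 infarcted and the 3 sham hearts did not overlap (exact permutation test on single genes, two-sided, p = 0.1, the smallest that 3 against 3 allow). These members were called on the same values, so the lack of overlap is not separate support. The share of all genes without overlap was not counted. In whole ventricle, fewer cells of a type and less RNA per cell cannot be told apart.

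**Figure D1:**
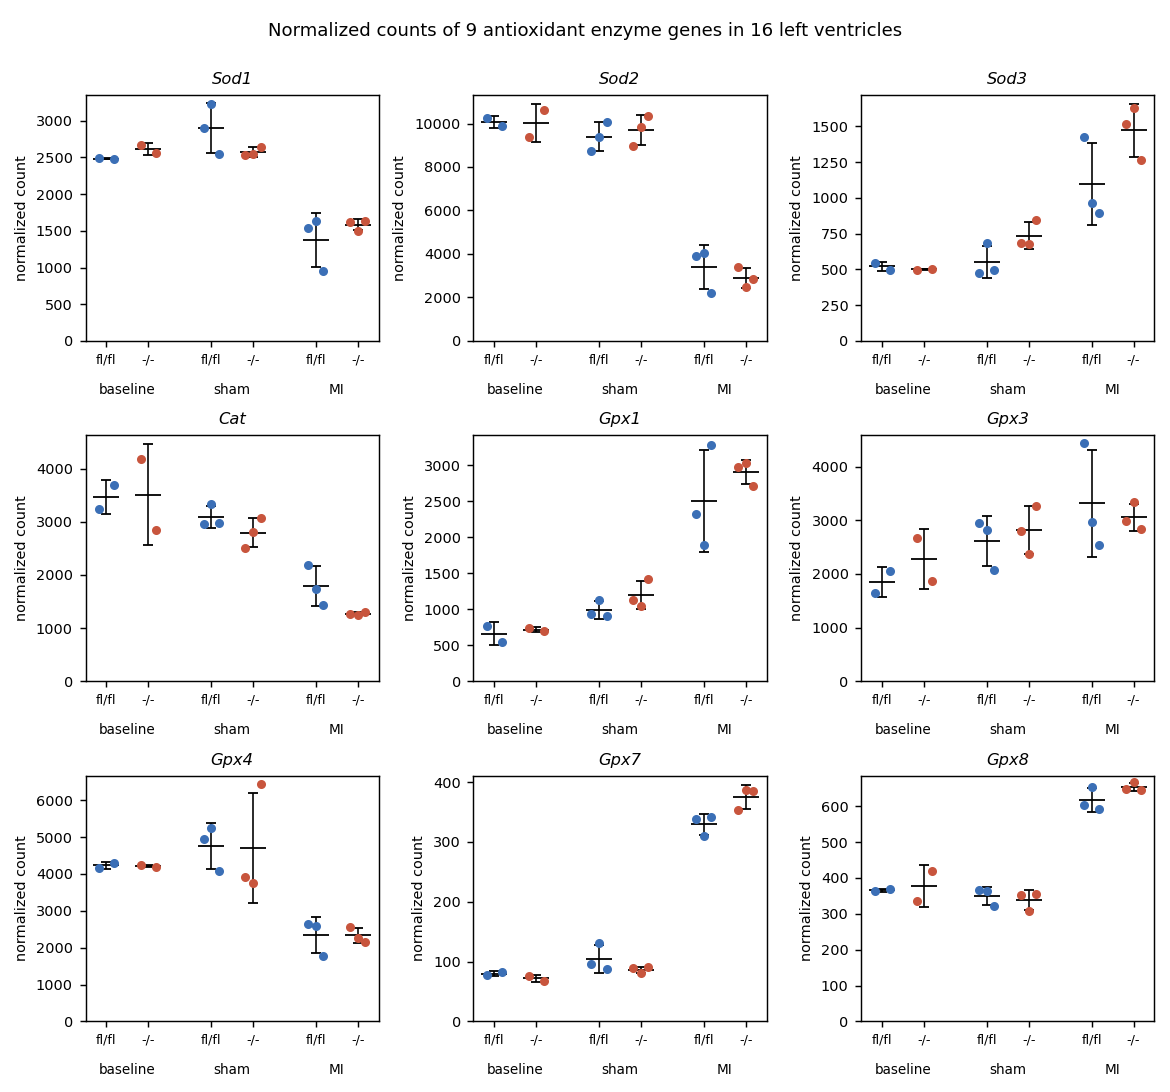
Normalized counts (vertical axes, starting at 0) of the 9 genes in 16 hearts by genotype (fl/fl, PKM2fl/fl, blue; -/-, PKM2-/-, red) and treatment, with 1 point per heart and bars at the mean ± SD (n = 2 at baseline, n = 3 otherwise). Infarcted hearts lie below sham hearts for Sod1, Sod2, Cat and Gpx4, above them for Sod3, Gpx1, Gpx7 and Gpx8, and overlap them for Gpx3.

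Sod2, the mitochondrial dismutase, fell most among the members. It had 8757, 9367 and 10078 normalized counts in the PKM2fl/fl sham hearts and 3911, 4058 and 2209.6 after MI. The PKM2-/- hearts had 8948, 9830.1 and 10332 after sham and 3397, 2482 and 2859 after MI. Every infarcted heart was below every sham heart, and PKM2fl/fl MI 3 was the lowest of its group. On the log2 scale Sod2 changed by -1.52 ± 0.18 (SE, adjusted p = 1.04e-05) in PKM2fl/fl and -1.75 ± 0.18 (SE, adjusted p = 1.96e-06) in PKM2-/- hearts, a 2.87-fold and a 3.35-fold fall. The genes with the profile most like that of Sod2 over the 16 libraries were Pdhb and Dlat, of the pyruvate dehydrogenase complex, and Atp5b, of ATP synthase. Their mean absolute difference from Sod2 was 0.063 to 0.066 on the log2 scale.

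Sod1, the cytosolic dismutase, moved in the same direction as Sod2. Its normalized counts were 2898, 3235 and 2554 in PKM2fl/fl sham hearts and 1533, 1636 and 951 in infarcted hearts. In PKM2-/- hearts they were 2532, 2545 and 2649 and 1619.7, 1503 and 1632. Sham and infarcted hearts did not overlap, and the 3 infarcted PKM2-/- hearts lay closer together than the 3 PKM2fl/fl hearts. Its log2 change was -1.11 ± 0.15 (SE, adjusted p = 3.24e-05) and -0.70 ± 0.15 (SE, adjusted p = 0.00116), respectively. With libraries scaled to their total reads the PKM2-/- value was -0.19 (adjusted p = 0.643 by limma), no longer a call.

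Sod3, the secreted dismutase, rose. The PKM2fl/fl sham hearts had 476, 684 and 498 normalized counts and the infarcted hearts 1424, 963 and 895. For PKM2-/- these were 683, 678 and 848 and 1516, 1631 and 1267. Infarcted hearts were above sham hearts of their genotype without overlap. The rise was 1.96-fold in PKM2fl/fl, or 0.97 ± 0.17 (SE, adjusted p = 2.69e-04) on the log2 scale, and 2.00-fold in PKM2-/- hearts, with 1.00 ± 0.17 (SE, adjusted p = 1.63e-04).

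Within a library, the ratio of reads on 2 genes does not depend on how libraries are scaled. For each 100 reads on Sod2, Sod3 had 5.44, 7.30 and 4.94 reads in PKM2fl/fl sham hearts and 36.4, 23.7 and 40.5 after MI. The corresponding values in PKM2-/- hearts were 7.64, 6.90 and 8.21 and 44.6, 65.7 and 44.3. At baseline the ratio was 5.30 and 5.05 in PKM2fl/fl and 5.32 and 4.75 in PKM2-/- hearts. Transcripts of the secreted relative to the mitochondrial dismutase were thus higher in all 6 infarcted hearts than in the other 10. This follows from the rise of Sod3 and the fall of Sod2 given above and is not separate support for them.

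Genes that supply the dismutases with metal were mixed. Of 7 tested copper and manganese genes, 3 rose and 2 fell in PKM2fl/fl hearts, and 5 rose and 1 fell in PKM2-/- hearts. Atp7a, the copper pump that loads secreted cuproenzymes such as SOD3, rose by 0.94 and 0.97 on the log2 scale (adjusted p = 7.28e-04 and 4.47e-04). Atox1, a copper chaperone, rose by 0.32 and 0.72 (adjusted p = 0.0370 and 1.23e-04). Slc39a8, a manganese and zinc importer, changed by 1.14 and 1.65 (adjusted p = 0.0240 and 0.00215). Ccs, the copper chaperone of SOD1, fell by 0.42 in PKM2fl/fl hearts (adjusted p = 0.0265) and had 0.0285 in PKM2-/- hearts (adjusted p = 0.885).

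Cat, the gene of catalase, fell in both genotypes. It had 2959, 3341 and 2986 normalized counts in PKM2fl/fl sham hearts and 2190.4, 1729.6 and 1439 after MI. In PKM2-/- hearts the counts were 2511, 2813 and 3074 after sham and 1270.3, 1247 and 1298 after MI, the latter within a narrow band. All infarcted hearts lay below all sham hearts. On the log2 scale this was -0.81 ± 0.15 (SE, adjusted p = 4.13e-04) in PKM2fl/fl and -1.13 ± 0.15 (SE, adjusted p = 1.58e-05) in PKM2-/- hearts. Scaling to total reads gave -0.62 in PKM2-/- hearts (adjusted p = 0.0817 by limma). Genes of peroxisome assembly and of peroxide-making oxidases, most of which share the organelle with catalase, were lower for 14 of 20 tested in PKM2fl/fl and 13 of 20 in PKM2-/- hearts, and higher for 0 in either. Their median log2 fold change was -0.52 and -0.49. Pex19, a membrane import factor, changed by -0.93 and -1.07 (adjusted p = 1.63e-05 and 3.06e-06).

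Gpx1, the ubiquitous cytosolic peroxidase, rose. Its normalized counts were 935, 1133 and 906 in PKM2fl/fl sham hearts and 2329.5, 1891 and 3279 after MI, with PKM2fl/fl MI 3 the highest. They were 1130.2, 1046 and 1419 in PKM2-/- sham hearts and 2976, 3031 and 2719 after MI. Infarcted and sham hearts did not overlap. Gpx1 changed on the log2 scale by 1.30 ± 0.18 (SE, adjusted p = 3.12e-05) in PKM2fl/fl and 1.29 ± 0.18 (SE, adjusted p = 2.27e-05) in PKM2-/- hearts, a rise of 2.47-fold and 2.44-fold.

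Gpx4, the lipid hydroperoxide reductase, carries a selenocysteine codon as Gpx1 does but fell. PKM2fl/fl hearts had 4945, 5259.7 and 4077 normalized counts after sham and 2637, 2601 and 1773 after MI. PKM2-/- hearts had 3923, 3759 and 6437 and 2559, 2274 and 2167. One sham heart, PKM2-/- sham 3, had the highest value of all 16, and every infarcted heart lay below every sham heart. MI against sham gave a log2 change of -1.04 ± 0.19 (SE, adjusted p = 2.96e-04) in PKM2fl/fl and -0.97 ± 0.19 (SE, adjusted p = 4.08e-04) in PKM2-/- hearts. Total read scaling gave -0.46 in PKM2-/- hearts (adjusted p = 0.227 by limma). Summed with Gpx4-ps2, an alternative added after the data were seen, Gpx4 had -1.05 and -0.95 (adjusted p = 3.29e-04 and 6.11e-04 by limma).

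The balance of these selenoprotein transcripts differed between infarcted and other hearts. Reads on Gpx4-ps2 were not counted with those on Gpx4. For each 100 reads on Gpx4, Gpx1 had 18.6 and 12.6 in PKM2fl/fl and 17.5 and 16.5 in PKM2-/- hearts at baseline. After sham it had 18.9, 21.5 and 22.2 in PKM2fl/fl and 28.8, 27.8 and 22.0 in PKM2-/- hearts. After MI the values were 88.3, 72.7 and 185 in PKM2fl/fl hearts and 116, 133 and 125 in PKM2-/- hearts. All 6 infarcted hearts were above all 10 others, and the widest spread was in the PKM2fl/fl MI group, where MI 3 was highest. The pair sets a member that rose over a member that fell, so this separation follows from those changes. It is not separate support for them.

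**Figure D2:**
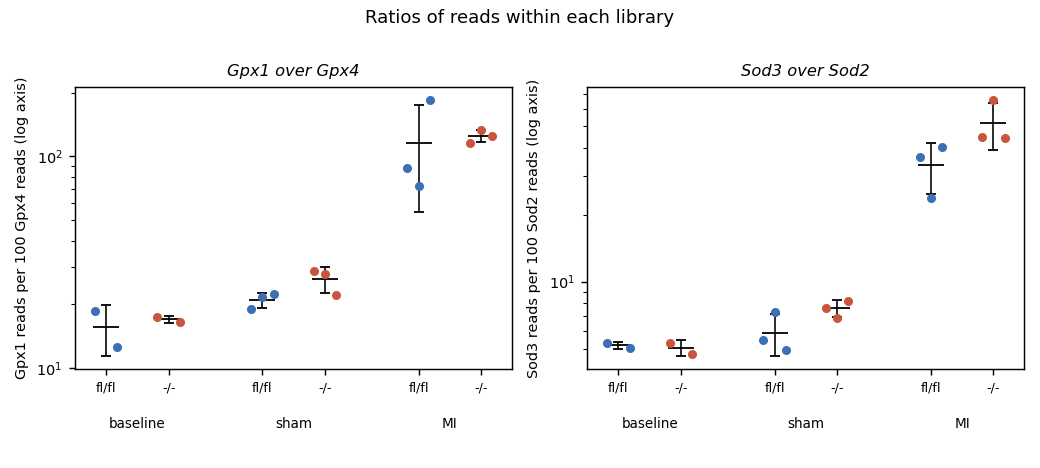
Reads on Gpx1 per 100 reads on Gpx4 (left) and on Sod3 per 100 reads on Sod2 (right), both on log axes, by genotype (fl/fl blue, -/- red) and treatment, with 1 point per heart and bars at the mean ± SD. The infarcted hearts reach 72.7 to 185 for Gpx1 over Gpx4, where the other hearts stay between 12.6 and 28.8.

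Genes of selenium supply were mixed. Of 12 genes of selenium transport and selenocysteine synthesis, 3 rose and 1 fell in PKM2fl/fl hearts, and 4 rose and 2 fell in PKM2-/- hearts. The largest evidence was for Lrp8, a receptor for selenoprotein P, with log2 fold changes of 3.42 and 3.04 (adjusted p = 7.82e-08 and 1.55e-07 by limma). Of 15 genes of glutathione synthesis and reduction, 5 rose and 5 fell in PKM2fl/fl hearts, and 6 rose and 6 fell in PKM2-/- hearts. G6pdx, which makes NADPH in the pentose phosphate pathway, rose by 1.35 and 1.46 (adjusted p = 5.56e-06 and 1.65e-06). Idh2, which makes NADPH in mitochondria, changed by -1.96 and -2.07 (adjusted p = 9.43e-06 and 3.61e-06). The cystine importer gene Slc7a11 rose by 2.39 and 3.75 (adjusted p = 9.45e-05 and 1.26e-06). Gsr, the reductase that returns oxidized glutathione to its reduced form, rose by 1.00 and 1.67 on the log2 scale (adjusted p = 8.58e-05 and 6.57e-07). Among 13 genes of lipid peroxidation and ferroptosis, 5 rose and 1 fell in each genotype. Hmox1, the haem-degrading oxygenase, rose by 4.50 and 4.54 (adjusted p = 5.15e-08 and 3.60e-08), and Ftl1, the ferritin light chain, by 1.77 and 2.21 (adjusted p = 2.38e-06 and 2.51e-07). Acsl4, which loads polyunsaturated fatty acids into the lipids that GPX4 protects, rose by 1.23 and 1.74 (adjusted p = 1.17e-05 and 3.85e-07).

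Gpx3, the secreted glutathione peroxidase, was the member that did not pass the test in either genotype. It had 2942, 2821 and 2076 normalized counts in PKM2fl/fl sham hearts and 4441, 2959.8 and 2544 after MI. The PKM2-/- hearts had 2802, 2376 and 3274 and 2994, 3335 and 2838. Sham and infarcted hearts overlapped in both genotypes. The estimated log2 change was 0.32 ± 0.20 (SE, adjusted p = 0.201) in PKM2fl/fl, with a 95% interval of -0.11 to 0.75, and 0.13 ± 0.20 (SE, adjusted p = 0.616) in PKM2-/- hearts, with an interval of -0.30 to 0.55.

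Gpx7, a cysteine peroxidase of the endoplasmic reticulum, rose most among the members. Its counts were the lowest of the 9, with 95.8, 131 and 87.3 normalized counts in PKM2fl/fl sham hearts and 339, 309.7 and 341 after MI. In PKM2-/- hearts it had 88.4, 81.0 and 90.6 after sham and 353, 387 and 385 after MI. These values rested on 55 to 610 reads per library, and the groups were far apart. The log2 change amounted to 1.67 ± 0.15 (SE, adjusted p = 9.32e-07) in PKM2fl/fl and 2.10 ± 0.15 (SE, adjusted p = 8.86e-08) in PKM2-/- hearts, a 3.17-fold and 4.29-fold rise.

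Gpx8, the membrane-bound peroxidase of the same compartment, also rose. PKM2fl/fl hearts had 366, 362 and 322 normalized counts after sham and 603, 655 and 592 after MI, and PKM2-/- hearts 354, 307 and 354 and 649, 667 and 645. Its groups did not overlap and its spread was the smallest among the members. The log2 change was 0.82 ± 0.11 (SE, adjusted p = 1.88e-05) and 0.95 ± 0.11 (SE, adjusted p = 3.09e-06), respectively, and total read scaling gave 0.64 in PKM2fl/fl hearts (adjusted p = 0.109 by limma). The value may be that of Gpx8, of Cdc20b or of both. Other genes of oxidative folding in the endoplasmic reticulum were higher for 10 of 11 tested in PKM2fl/fl and 10 of 11 in PKM2-/- hearts, with medians of 1.14 and 1.26. Txndc5, a thioredoxin-domain disulfide isomerase, rose by 1.39 and 1.51 (adjusted p = 3.00e-07 and 1.07e-07). P4hb, the protein disulfide isomerase that also serves prolyl hydroxylation of collagen, rose by 1.21 and 1.35 (adjusted p = 4.47e-07 and 1.30e-07).

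**Figure D3:**
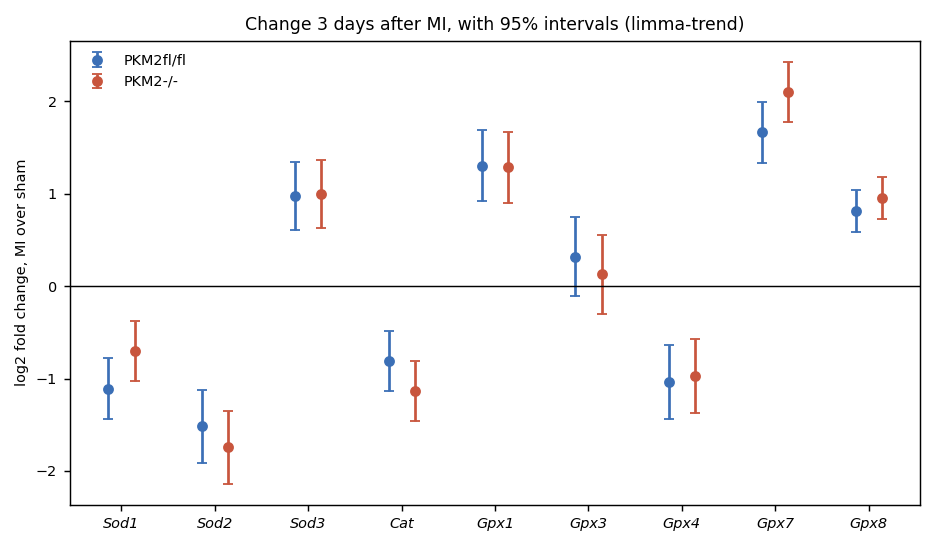
Log2 fold change of MI over sham (vertical axis) for the 9 members in PKM2fl/fl (blue) and PKM2-/- (red) hearts, with points at the limma-trend estimate and bars for the 95% interval. Intervals of 8 members exclude 0 in both genotypes, with Sod2 lowest (-1.52 and -1.75) and Gpx7 highest (1.67 and 2.10), and those of Gpx3 include 0.

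Marker lists of cell types differed in their change after MI. Cardiomyocyte markers were lower after MI for 9 of 10 in each genotype, with median log2 fold changes of -1.81 and -2.20, both below the change of Sod2. Macrophage and monocyte markers were higher for 10 of 10 (medians 2.11 and 2.30), with sums of 6461 to 12086 normalized counts in PKM2fl/fl sham and 24822 to 42225 in infarcted hearts. Fibroblast markers were higher for 7 and lower for 1 of 9 in each genotype, and proliferation markers higher for 5 and 6 of 6. Neutrophil markers were higher for 3 of 6 in each, and endothelial and smooth muscle markers had calls in either direction. Erythroid markers had 0 calls of 7. The part of cell composition in the changes of the members was not tested. Scaling to total reads moved the median of all genes by -0.17 in PKM2fl/fl and 0.51 in PKM2-/- hearts, and no called member changed sign. Relative to the median of all genes, the PKM2-/- values under that scaling were -0.71 for Sod1, -1.14 for Cat and -0.97 for Gpx4. That scaling changes only a factor for each library, so subtracting the median all but returns the main estimates. These values are therefore not separate support for the falls.

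**Figure D4:**
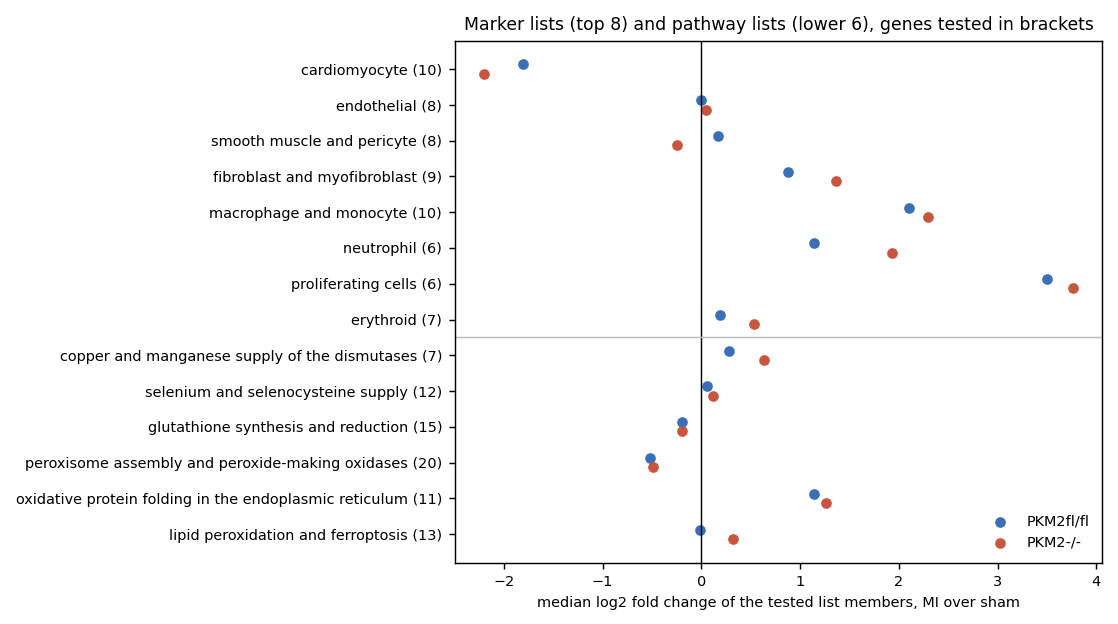
Median log2 fold change of MI over sham (horizontal axis) for 8 lists of cell type markers above the line and 6 pathway lists below it, in PKM2fl/fl (blue) and PKM2-/- (red) hearts, with the number of genes tested in brackets. Cardiomyocyte markers (-1.81 and -2.20) and genes of the peroxisome and oxidase list (-0.52 and -0.49) lie left of 0, and macrophage markers and oxidative folding genes right of it.

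Loss of PKM2 was first compared in unoperated hearts. No member was called (0 of 9), against 0.00972% of all genes, and 0 members had an unadjusted p under 0.05 in limma. edgeR and DESeq2 called 0 members too. Sod2 had 10272 and 9873 normalized counts in PKM2fl/fl and 9385 and 10619.6 in PKM2-/- hearts, and Gpx4 had 4162 and 4307 and 4234 and 4195. These overlapped. The 95% interval of the log2 fold change was -0.49 to 0.47 for Sod2 and -0.50 to 0.48 for Gpx4. The estimate for Sod1 was 0.0734 (-0.33 to 0.47), for Gpx1 0.14 (-0.33 to 0.61) and for Gpx8 0.0385 (-0.24 to 0.32). Sod1 did not overlap between genotypes, with 2487 and 2482 normalized counts in PKM2fl/fl and 2674 and 2556 in PKM2-/- hearts. Gpx7 did not overlap either (exact permutation p = 0.33 for each, the smallest that 2 against 2 allow). The share of all genes without overlap was not counted. The interval of Sod3 ran from -0.51 to 0.40 and that of Gpx7 from -0.56 to 0.25. Cat differed most between mice of 1 group, with 4190.0 and 2839 in PKM2-/- and 3242 and 3695 in PKM2fl/fl hearts. Gpx3 had 1644 and 2045 in PKM2fl/fl and 2671 and 1877 in PKM2-/- hearts, a log2 fold change of 0.29 with the widest interval, -0.24 to 0.81. With 2 mice a group, changes within these bounds remain possible, and the spread behind the bounds comes mostly from the operated hearts. The bounds are not limits of detection, since a call also required an adjusted p under 0.05 over all genes. Total read scaling moved the median of all genes by -0.58, beside the share of rRNA-related reads given above, whose part was not tested.

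After sham surgery, again no member was called (0 of 9, against 0.00972% of all genes). edgeR and DESeq2 called 0 of 9 as well. One member, Sod3, had an unadjusted p under 0.05 in limma. Its normalized counts were 683, 678 and 848 in PKM2-/- and 476, 684 and 498 in PKM2fl/fl hearts, which overlapped, with a log2 difference of 0.42 ± 0.17 (SE, adjusted p = 0.425). Gpx1 had 0.27 (-0.12 to 0.65) and Gpx7 -0.25 (-0.58 to 0.0767), with 95% intervals in brackets. The other 6 members had log2 fold changes between -0.16 and 0.11.

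After MI, the largest estimates between genotypes were those of Cat and Sod3, and 0 of 9 members were called, against 0.967% of all genes. Cat was lower in each PKM2-/- heart (1270.3, 1247 and 1298 normalized counts) than in any PKM2fl/fl heart (2190.4, 1729.6 and 1439). This was a log2 change of -0.47 ± 0.15 (SE, adjusted p = 0.134), a 1.38-fold lower level with a 95% interval of -0.79 to -0.14. DESeq2 gave -0.49 (adjusted p = 0.0508) and edgeR -0.49 (adjusted p = 0.132), and edgeR with no filter on low counts called it (adjusted p = 0.0226). Without PKM2fl/fl MI 3, Cat was called lower, with -0.61 (adjusted p = 0.0152 by limma), as was Sod2, with -0.46 (adjusted p = 0.0237 by limma), and calls over all genes went from 199 to 2271. With all libraries Sod2 had -0.18 (adjusted p = 0.666).

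Sod3 had 1516, 1631 and 1267 normalized counts in PKM2-/- and 1424, 963 and 895 in PKM2fl/fl hearts after MI, with overlap. The log2 difference was 0.45 ± 0.17 (SE, adjusted p = 0.204), a 1.37-fold level. edgeR with no filter called it (adjusted p = 0.0277), and edgeR and DESeq2 as otherwise run gave adjusted p = 0.223 and 0.162. Cat and Sod3 were the 2 members with an unadjusted p under 0.05 in limma. Gpx4 was all but level between genotypes, at 2337 ± 489 in PKM2fl/fl hearts and 2333 ± 203 in those of PKM2-/- mice (SD, n = 3 each), with an interval of -0.38 to 0.42. Gpx7 did not overlap between genotypes after MI, with a log2 difference of 0.19 ± 0.15 (SE, adjusted p = 0.577). Sod1 (0.24), Gpx1 (0.25), Gpx8 (0.0856) and Gpx3 (-0.0798) had adjusted p from 0.443 to 0.881 by limma. Beside these values, cardiomyocyte markers had a median of -0.44 and 0 calls of 10, genes of the peroxisome and oxidase list -0.11 and 0 calls of 20, and neutrophil markers 1.44 and 0 calls of 6. The part of these cells in the difference was not tested.

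**Figure D5:**
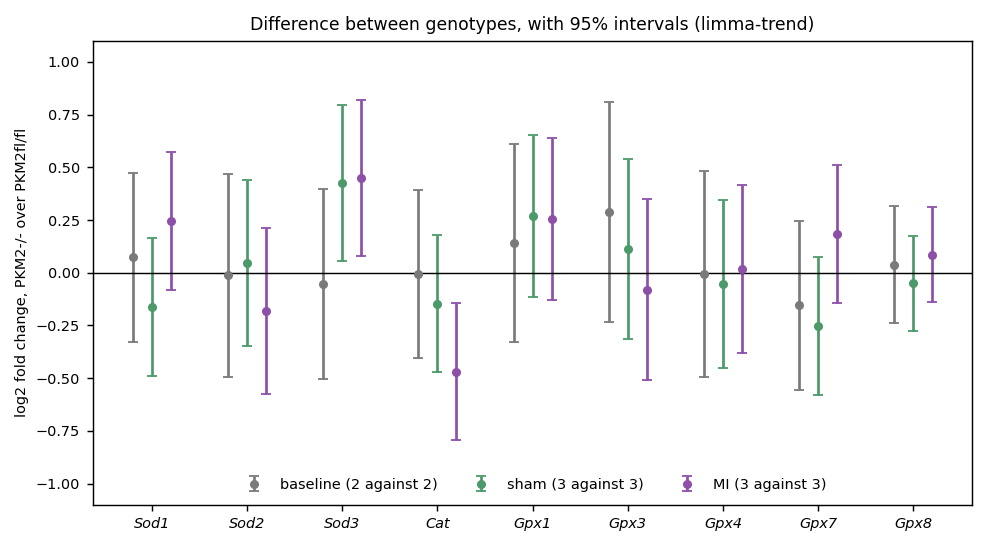
Log2 fold change of PKM2-/- over PKM2fl/fl (vertical axis) for the 9 members at baseline (grey), after sham (green) and after MI (purple), with 95% intervals from limma-trend. The intervals of Sod3 after sham and of Cat and Sod3 after MI exclude 0 before adjustment over all genes, and after it no member was called.

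Whether the response to MI differed between genotypes was tested as an interaction. No member was called (0 of 9), nor was any of the 20576 genes in limma (0% of all genes), of which 1703 had an unadjusted p under 0.05. Over all genes edgeR called 0, DESeq2 60 and edgeR with no filter 538, and of the members 0 in each. The largest differences were in Gpx7, 0.44 ± 0.22 (SE, adjusted p = 0.625), with a larger rise in PKM2-/- hearts, and in Sod1, 0.41 ± 0.22 (SE, adjusted p = 0.658), with a smaller fall. Their 95% intervals were -0.0271 to 0.90 and -0.0565 to 0.87. For Cat the difference was -0.32 (-0.78 to 0.14) and for Sod2 -0.23 (-0.78 to 0.33). Gpx1 and Sod3 had -0.0138 and 0.0249, with intervals of -0.56 to 0.53 and -0.50 to 0.55.

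Sham surgery itself was compared with baseline over both genotypes. Gpx1 was higher after sham, with 772 and 543 normalized counts at baseline and 935, 1133 and 906 after sham in PKM2fl/fl, and 739 and 691 and 1130.2, 1046 and 1419 in PKM2-/- hearts. All 6 sham hearts were above all 4 baseline hearts. Gpx1 changed by 0.67 ± 0.14 (SE, adjusted p = 0.0107) on the log2 scale, a 1.59-fold rise, and Gpx1 was the 1 member called, against 6.54% of all genes. Without PKM2fl/fl baseline 2, the lowest of the 16 hearts for Gpx1, the adjusted p was 0.0699, and with total read scaling 0.0564 by limma. Gpx3 (0.41), Gpx7 (0.32) and Sod3 (0.31) had unadjusted p under 0.05 and adjusted p of 0.157, 0.148 and 0.225. Cat had -0.23 and the other 4 members lay between -0.11 and 0.14. Macrophage markers were higher for 9 of 10 and neutrophil markers for 6 of 6 after sham, and their part in the change of Gpx1 was not tested.

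Promoter windows were read for the members from RefSeq (GRCm38.p6, 250 bases before to 50 after each start), which held 11 windows of 8 members and none of Sod3. Letters of 4 motifs were searched on both strands. The antioxidant response core TGACNNNGC, found in 12.4% of 32851 windows, was present in Sod1 alone of the members. The NRF-1 motif, GCGCA and GCGC with any 1 base between them (4.60% of windows), was in Gpx4 alone, the AP-1 motif TGANTCA (7.81%) in no member, and the hypoxia response core ACGTG (19.6%) in Gpx1 and Gpx8. The matches are in capitals, with 10 bases on each side. Sod2, Cat, Gpx3 and Gpx7 hold none of the 4 motifs in their windows. ACGTG was in windows of 2 of the 8 members, beside 19.6% of all windows. A link between these motifs and the direction after MI was not tested. The matches lie at chr16:90220696-90220724, forward strand for Sod1, chr10:80053496-80053525, forward strand for Gpx4, chr9:108338887-108338911, forward strand for Gpx1 and chr13:113046545-113046569, reverse strand for Gpx8. Those in Sod1 and Gpx8 read the motif on the other strand.
Sod1: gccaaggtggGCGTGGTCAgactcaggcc
Gpx4: tcgcgtcttaGCGCAGGCGCatctgaccaa
Gpx1: atgactagaaACGTGtgggtaaagt
Gpx8: aaagtgcagcCACGTtaacaatttt

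Profiles across the 16 libraries were set beside those of 13469 genes whose mean normalized count was 100 or more, by the mean absolute difference of log2 values after centring each gene. The nearest genes describe shared levels only, since all share the same libraries. Nearest to Sod1 were Bag1 (0.077), Aldh2 and Gm28551, and nearest to Cat were Me1 (0.083), As3mt and Dglucy. Me1 encodes the cytosolic malic enzyme, which makes NADPH. Sod3 was nearest to Zyx (0.127), Fam149a and Tnfrsf1a, and Gpx1 to Unc93b1 (0.128), Lrp1 and Arpc1b. The 3 nearest to Gpx3 were Gm9892 (0.151), Timp2 and Serpine2. For Gpx7 they were Ctsz (0.120) and Ctsc, both lysosomal cathepsins, with Rap2b. Gpx8 was nearest to Cdc20b (0.016), whose reads track its own in every library, and then to Jag1 and Itgb1. Gpx4 was nearest to its pseudogene Gpx4-ps2 (0.077), and then to Timm8b and Txn2, which encode mitochondrial proteins. The remaining glutathione peroxidase genes, Gpx2, Gpx5 and Gpx6, did not pass the filter.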

How the data were processed

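RNA from 16 left ventricles, 1 mouse each, was sequenced as paired ends after rRNA depletion. The authors trimmed reads, aligned them to mm10 with HISAT2 and counted them per gene with featureCounts (versions, strand and multi-mapping settings are not given in the sources used here). The deposited signal is the normalized count, which scales the reads of a gene by a DESeq2 size factor for each library. Dividing each library by its smallest step gave whole reads for 100% of values above 0 (tolerance 0.01). The deposited table also holds the authors' mean, log2 fold change, its standard error, Wald score and p-value for genotype at baseline, which were not used.

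Samples were grouped by the labels. Log2 of the normalized count plus 1 was fitted for 20576 genes with a mean of at least 10 by limma-trend (limma 3.58.1, R 4.3.3), with 6 group means over all 16 libraries and Benjamini-Hochberg adjustment over all genes. A call is an adjusted p under 0.05. Fold changes are on this scale and understate changes of low genes. p-values set a difference against the spread between mice within groups, estimated over all 6 groups together. Alternatives were edgeR 4.0.16 quasi-likelihood (filtered and unfiltered) and DESeq2 1.42.0 on the recovered reads, total read scaling, no filter, a pseudocount of 0.1, fits of the compared groups alone, a 2-fold rule, the replicate number as a block, and each library left out. On the recovered reads edgeR called 10741 genes for MI against sham in PKM2fl/fl and 12058 in PKM2-/- hearts. In data simulated for MI against sham in PKM2fl/fl, limma-trend recovered 81.1% of 106 genes changed 2-fold and 9.57% of 94 changed 1.5-fold among 20573 genes, with 6 false calls. The simulation assumed the same dispersion for every gene and changed no other genes. In the real comparison 50.1% of genes were called, so these rates do not give its power.

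The members and gene lists were chosen with earlier results of these data known. Besides the members, the text names, for each pathway list, genes among the 3 with the smallest p of those called in either MI comparison, some markers, and the 3 genes nearest each member. Sequences came from GRCm39 with GENCODE M39, compared by BLAST 2.17.0, and from RefSeq. The result of 1 gene of the peroxisome list is not reported here.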

Additional observations from a re-analysis of the deposited data

Results flagged for a closer look

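Gpx7 was flagged because the 2 genotypes did not overlap in opposite directions before and after infarction. At baseline the mean of the PKM2-/- hearts was below that of the PKM2fl/fl hearts, a difference of -10.2%, with 75.8 and 67.8 against 76.9 and 82.9 normalized counts, and after MI it was above it, by 13.7%, with 353, 387 and 385 against 339, 309.7 and 341. The baseline values rested on 37 to 125 reads. In exact permutation tests of Gpx7 alone, p was 0.33 at baseline and 0.1 after MI. These are the smallest that 2 against 2 and 3 against 3 allow. Gpx7 was picked from the members for this pattern, and the share of all genes with it was not counted. The difference between baseline and MI was not tested. The related difference in the response from sham to MI was 0.44 on the log2 scale (adjusted p = 0.625 by limma), and over its alternatives and left-out libraries that value ranged from 0.26 to 1.12, with 0 calls.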

How the results depend on the processing

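The 4 rises and 4 falls after MI kept their direction under every alternative run, in both genotypes, and leaving out each library in turn left 8 members called. With a 2-fold change also required, 5 of the 8 remained called in PKM2fl/fl (2 higher, 3 lower) and 4 in PKM2-/- hearts (2 higher, 2 lower), and 0 for sham against baseline. Total read scaling left 5 calls in PKM2-/- hearts, 4 higher and 1 lower, where Sod1, Cat and Gpx4 lost theirs, and 0 for sham against baseline. Over all genes it gave 2390 higher and 3637 lower in PKM2fl/fl (from 5097 and 5202) and 7305 and 1894 in PKM2-/- hearts (from 5899 and 5780), 101 and 20 between genotypes after MI (from 81 and 118), and 628 and 34 for sham against baseline (from 930 and 416). edgeR with no filter called 2 members after MI between genotypes, Cat and Sod3, and 2 for sham against baseline. The causes were not tested.

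With total read scaling, the median of all genes moved by -0.58 at baseline, -0.32 after sham, 0.36 after MI between genotypes and 0.68 in the interaction, and some members that were not called changed sign. At baseline these were Sod1 (-0.52), Gpx1 (-0.45), Gpx3 (-0.30) and Gpx8 (-0.55). After sham these were Sod2 (-0.28), Gpx1 (-0.0544) and Gpx3 (-0.21). After MI these were Sod2 (0.19) and Gpx3 (0.29). In the interaction these were Sod2 (0.46), Cat (0.37), Gpx1 (0.68) and Gpx3 (0.50). For sham against baseline these were Sod2 (0.00855). For Cat at baseline edgeR, DESeq2 and edgeR with no filter gave 0.0135, 0.0202 and 0.00432, for Gpx4 after MI edgeR and DESeq2 gave -0.00277 and -0.00136, and Gpx4 summed with Gpx4-ps2 gave 0.0138 at baseline.

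Leaving out each library in turn changed the sign of members that were not called, over these ranges. At baseline they were Sod2 -0.10 to 0.0766, Sod3 -0.12 to 0.00904, Cat -0.29 to 0.28, Gpx1 -0.11 to 0.40, Gpx4 -0.0314 to 0.0179 and Gpx8 -0.12 to 0.20. After sham they were Sod2 -0.00434 to 0.10, Gpx3 -0.0445 to 0.23, Gpx4 -0.30 to 0.0863 and Gpx8 -0.11 to 0.0171. After MI they were Sod1 -4.53e-04 to 0.39, Gpx3 -0.25 to 0.15 and Gpx4 -0.17 to 0.12. In the interaction they were Sod3 -0.14 to 0.23, Gpx1 -0.20 to 0.20, Gpx3 -0.36 to 0.0387 and Gpx4 -0.12 to 0.32. Members called then ranged from 0 to 2 after MI between genotypes, 2 only without PKM2fl/fl MI 3, and from 0 to 1 for sham against baseline, 0 only without PKM2fl/fl baseline 2.

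Calls over all genes between genotypes depended on the tool. At baseline they were 2 in limma, 1 in edgeR, 19 in DESeq2, 214 in edgeR with no filter and 42 with the 4 baseline libraries alone, after sham 2, 2, 275, 716 and 9 in the same order with 6 libraries, and after MI 199, 138, 1043, 1710 and 6. After MI they ranged from 11 to 2271 over the left-out libraries. Replicate numbers did not pair the mice: over 36 same-numbered pairs the correlation of deviations from group means ran from -0.20 to 0.13, with 1 above 0.1, and 3 of 16 libraries were nearest their own number. With the replicate block 8, 8, 0, 0, 0, 0 and 1 members were called, as without it, and 75 of all genes in place of 199 after MI between genotypes. Depth limits Gpx7 most, with 37 reads in 1 library.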
